A study of Oryza sativa with 6 samples.

Results

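The transcriptomes of S-type lateral roots and nodal roots of salt-treated rice were compared locus by locus. Members of the comparison were the 13608 loci, of 37938 in the deposited table, with at least 50 scaled reads in the salt S-type or the salt nodal library. Scaled reads are whole reads divided by a TMM-normalised library size and set to a library of 4013580 reads. All plants were of the cultivar IR29, which the series describes as salt sensitive. Each of the 6 groups was 1 library: nodal, S-type and L-type roots, grown without added salt or treated with 50 mM NaCl for 7 days. The control S-type and nodal libraries form the control pair, to which 13453 loci with at least 50 scaled reads belonged by the same rule, and the L-type libraries are given beside the others where they help. The labels do not say how many plants a library pooled, and with 1 library per group there is no spread between replicates, so no difference between 2 libraries has a test.

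Rice forms nodal roots from the base of its shoot, and these thick axes carry lateral roots, of which the S-type are short, thin and do not branch, whereas the L-type are longer, thicker and can branch again. Root tips divide and elongate, older zones differentiate vessels with secondary walls and barriers such as the Casparian strip, and salt stress is known to act on growth, water uptake and abscisic acid (ABA) signalling. In whole roots, fewer cells of a type and less RNA per cell cannot be told apart.

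The 6 libraries held 3839177 to 4249872 reads on loci, and reads were found at 21368 loci in the salt S-type library, the fewest, and at 24121 in the salt nodal library, the most. The TMM factors were 0.799 for salt S-type and 1.114 for salt nodal, against 0.825 and 1.064 for the control pair. In the salt S-type library 1001 loci held 50% of all reads, against 1621 in salt nodal, 1296 in control S-type and 1474 in control nodal. The 10 most abundant loci held 6.94% of the salt S-type reads and 4.92% of the salt nodal reads.

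Set against nodal roots, salt-treated S-type roots had 3374 higher loci (24.8% of members) and 3103 lower ones (22.8%). A locus was counted when log2(scaled reads + 1) differed by 2-fold or more, the library with more reads held 50 or more scaled reads, and the Clopper-Pearson 95% interval of the ratio, exact and conditional on the sum of both libraries, left out 1. This rule of size covers counting error only, and reads without molecular identifiers are not independent molecules. The remaining 7131 members (52.4%) met it in neither direction. The median log2 difference over members was 0.07, with quartiles at -0.88 and 0.99. The balance of directions depends on the scaling: with library totals in place of TMM the median was -0.47 and 2355 loci were higher against 4636 lower, so 33.7% of the called loci were higher in place of 52.1%.

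The control pair had 3668 higher (27.3%) and 2638 lower loci (19.6%), so at 2-fold more loci were lower under salt than under control. That order depends on the scaling, since median-of-ratios factors gave 3090 lower loci under salt and 3151 under control. The gap between the pairs was clearer at large differences. At 16-fold or more, 936 loci were lower in salt S-type roots against 210 in the control pair, while 605 and 513 were higher; with median-of-ratios factors 935 and 248 were lower, and with library totals 1177 and 279. At 64-fold or more, 307 were lower under salt and 57 under control, and 168 and 100 were higher. No read was found in the salt S-type library for 266 of the lower loci, and none in the salt nodal library for 67 of the higher ones; the corresponding numbers in the control pair were 55 and 49.

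**Figure D1:**
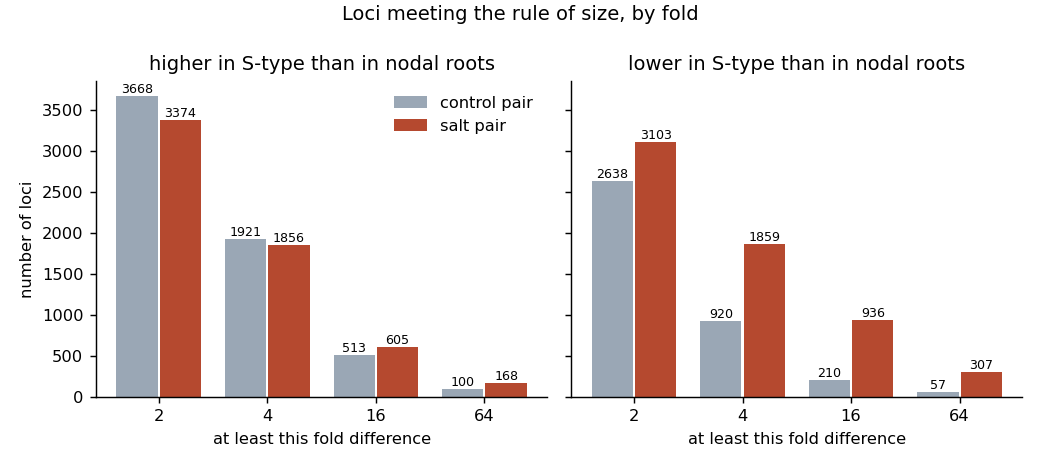
Number of loci (vertical axis) that met the rule of size in the control pair (grey) and the salt pair (red) at 2-, 4-, 16- and 64-fold or more, higher in S-type roots on the left and lower on the right; each pair is 1 library against 1. At 16-fold and above the lower loci numbered 936 under salt and 210 under control, while the higher ones numbered 605 and 513.

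Direction went with abundance. Among the 3451 members whose higher library held 50 to 100 scaled reads, 15.9% were higher and 31.0% lower in S-type roots. Between 500 and 5000 scaled reads, where there were 2589 members, 45.1% were higher and 15.6% lower. Of the 96 members at 5000 or more, 68 were higher and 15 lower. The called higher loci took 55.4% of all reads of the salt S-type library and 14.9% of those of the salt nodal library, and the called lower loci took 4.25% and 29.0%. By chromosome the share higher ran from 17.6% on chromosome 12 to 28.0% on chromosome 1, and the share lower from 20.9% on chromosome 2 to 26.4% on chromosome 11. At the edge of membership, 190 members at 50 to 52 scaled reads had a median absolute log2 difference of 1.09, and 205 loci at 48 to 50, left out by the rule, had 1.13.

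The salt L-type library lay between the other root types at most called loci: at 3016 of the higher loci (89.4%) and 2588 of the lower ones (83.4%). Called loci were chosen for a gap between S-type and nodal roots, which by itself favours another library lying between them. The share over all members was not counted. At the called loci the salt L-type library lay nearer the nodal than the S-type level on the log2 scale. The median L-type minus nodal difference was 0.95 at the higher loci, where S-type minus nodal was 2.15, and -0.74 at the lower loci, where S-type minus nodal was -2.55.

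Of the 3374 loci higher in salt S-type roots, 2445 (72.5%) were also higher in the control pair, which is 66.7% of the control pair's higher loci. Of the 3103 lower loci, 1557 (50.2%) were also lower in the control pair, or 59.0% of its lower loci. A difference was called absent under control only where the interval of the control ratio lay wholly below 2-fold in the salt direction. Loci with the opposite call in the control pair were counted apart. The absent class held 428 higher loci (12.7%) and 672 lower loci (21.7%). It can include control differences the other way that missed the rule, and a few of its lower loci had a control log2 difference of 3.5 or more. The excess of lower loci rests on the scaling: the counts were 553 and 559 with median-of-ratios factors, 543 and 562 with the authors' factors and 271 and 956 with library totals. A further 491 higher and 744 lower loci were undecided, their control interval reaching 2-fold or more without the rule being met; the median level of their higher control library was 51.2 and 53.3 scaled reads. The opposite call was made in the control pair at 10 higher and 130 lower loci.

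The loci lower in both pairs did not keep the same size of difference. Their median log2 difference was -3.22 under salt and -1.83 under control, and at 812 of the 1557 (52.2%) the difference was at least 2-fold wider under salt, as it was at 846 of 1727 with median-of-ratios factors. At 684 of these 1557 loci the S-type library alone fell at least 2-fold from control to salt, and at 59 the nodal library alone did. The loci higher in both pairs were closer, with medians of 2.51 and 2.37, and at 515 of the 2445 (21.1%) the difference was at least 2-fold wider under salt.

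**Figure D2:**
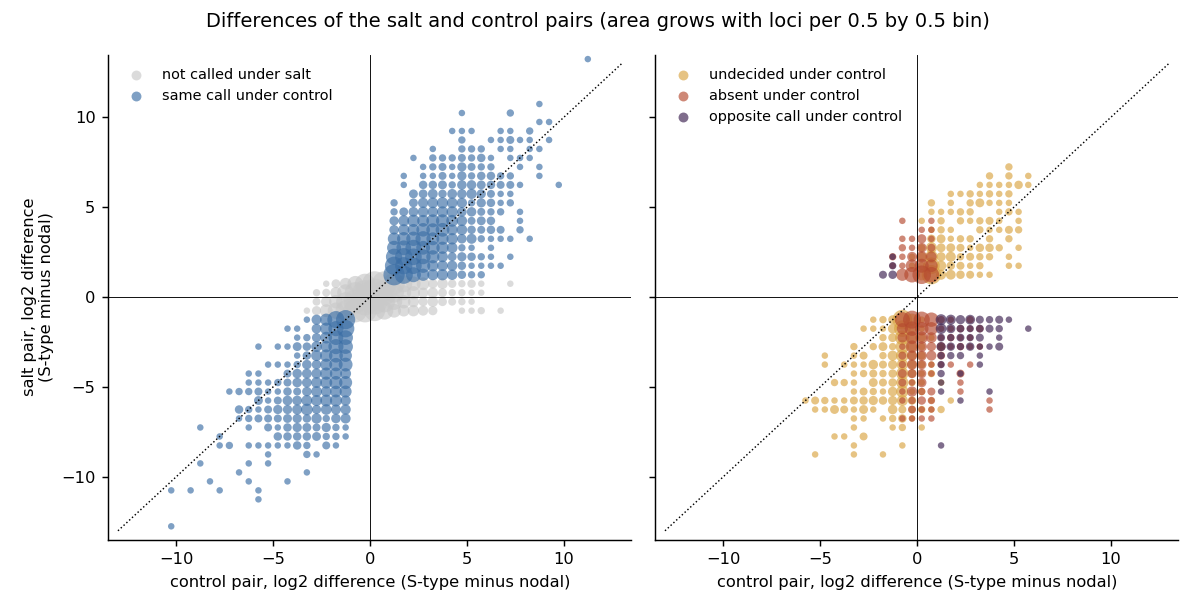
Log2 difference of S-type minus nodal roots in the control pair (horizontal) and the salt pair (vertical) over the members, in bins of 0.5 by 0.5; the area of a point grows with the number of loci, and the dotted line marks equal differences. On the left are loci not called under salt (grey) and those with the same call in the control pair (blue), on the right those undecided (ochre), absent (red) or called the opposite way (dark) under control. The lower loci in blue reach further below the line than the higher ones reach above it.

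Differences absent under control were mostly moderate in size. The 428 higher loci of this class had a median log2 difference of 1.36 under salt and 0.27 under control, and the 672 lower loci had -1.64 and -0.02. Since a locus can pass 2-fold in 1 pair and fall just short in the other, loci whose difference was also at least 2-fold wider under salt were counted too (a count added with the data in view): 274 higher and 556 lower loci were left (356 and 459 with median-of-ratios factors). Among these 274 higher loci, the nodal library alone fell at least 2-fold with salt at 117 and the S-type library alone rose at least 2-fold at 55; both libraries moved at least 2-fold, in any direction, at 10, and neither did at 92. Among the 556 lower loci, the S-type library alone fell at 223, the nodal library alone rose at 160, both moved at 103 and neither did at 70. The salt L-type library also stood at least 2-fold from the salt nodal library in the same direction at 71 of the 274 and 127 of the 556.

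Among loci absent under control that reached 200 scaled reads in a library of the salt pair and whose ID stands on 1 locus, those with the widest gap between the pairs are given by ID, because the deposited files do not pair IDs with names. Os02g0770800 (IRGSP-1.0, chromosome 2, 32513748 to 32517155) had 16.6 scaled reads in salt nodal and 288.8 in salt S-type roots, and 137.6 and 196.6 in the control pair. Its S-type to nodal ratio was 17.4 (95% interval 10.9 to 29.5) under salt and 1.43 (1.14 to 1.79) under control, and the nodal library is the one that moved most. Os03g0191900 (chromosome 3, 4780246 to 4781570, an interval that 2 loci share) had 36.7 and 504.2 scaled reads under salt and 134.9 and 160.8 under control. Its ratio was 13.7 (9.98 to 19.4) and 1.19 (0.938 to 1.51). On the lower side, Os04g0535200 (chromosome 4, 26746713 to 26748520) had 228.8 scaled reads in salt nodal and 1.3 in salt S-type roots, from 1 read, against 17.8 and 29.8 under control. Its nodal to S-type ratio under salt was 177 (31.6 to 7040). Os11g0587300 (chromosome 11, 22241917 to 22244524) had 422.7 and 2.6 scaled reads under salt against 53.3 and 73.9 under control, a nodal to S-type ratio of 164 (45.1 to 1360). The salt L-type library held 209.4 and 113.8 scaled reads at these last loci, near the nodal rather than the S-type level.

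The loci with the largest differences under salt were also far apart under control. Os11g0428800 (chromosome 11, 13723176 to 13724624) had 31214.9 scaled reads in salt S-type, 307.8 in salt L-type and 2.6 in salt nodal roots, and 7954.2 and 2.7 in control S-type and nodal roots. Its S-type to nodal ratio was 11900 (4080 to 57800) under salt and 2990 under control. Os02g0584200 (chromosome 2, 22509549 to 22531379, shared by 2 loci) had 1963.8 scaled reads in salt S-type roots and no read in salt nodal roots. The control pair held 1473.8 and 2.7. With the salt nodal library set to a floor of 3 reads the ratio was 750, and the lower limit of its 95% interval was 609. Os03g0103200 (chromosome 3, 208339 to 211818) had 6847.0 scaled reads in salt nodal, 1775.2 in salt L-type and none in salt S-type roots. Control nodal and S-type roots held 9993.8 and 7.1. With the same floor for salt S-type roots the nodal to S-type ratio was 1770. The 95% interval, again computed without the floor, had a lower limit of 1440. Os02g0662000 (chromosome 2, 26804987 to 26805820) had 5523.9 scaled reads in salt nodal and 1.3 in salt S-type roots, against 11204.7 and 230.0 under control. Its nodal to S-type ratio was 4280 (769 to 169000) under salt, from 1 read in salt S-type roots, and 48.7 (42.3 to 56.5) under control. These intervals cover counting error only, and the difference between the pairs was not tested.

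Gene groups were read through 40 lists of 451 rice IDs written from general knowledge, whose membership was not checked against an annotation. Of the 434 IDs with a locus, 281 were members; 76 of these were higher and 137 lower in S-type roots under salt, beside 24.8% and 22.8% over all members. Membership itself favours differences: 92 of the 137 lower ones held under 50 scaled reads in salt S-type roots and so were members through the nodal library alone, and 26 of the 76 higher ones were members through the S-type library alone. Counts of calls in the lists are therefore descriptions, and the sums and the control pair are given beside them. Median log2 differences below run over the members of a list, sums of scaled reads run over all its measured loci, and ratios of sums carry intervals for counting error only. Near-identical copies in these families may share reads, so single copies are uncertain.

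**Figure D3:**
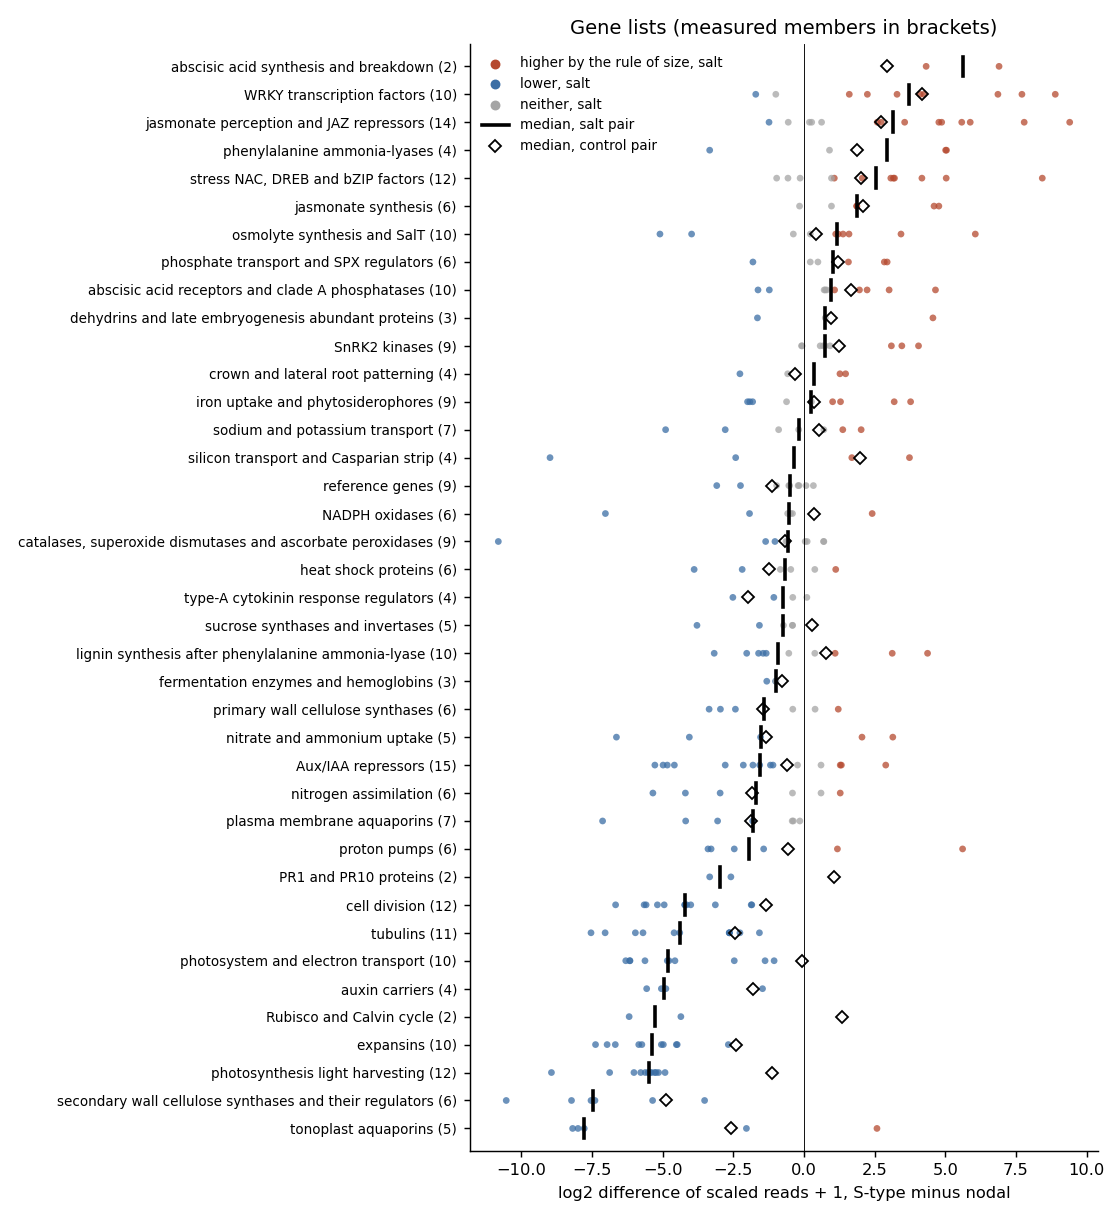
Log2 difference of S-type minus nodal roots under salt (horizontal) for each member of 39 gene lists (1 row each, number of members in brackets); red points were higher and blue points lower by the rule of size, grey points neither, black bars mark the list median under salt and open diamonds the median in the control pair. Lists for tonoplast aquaporins, the secondary wall, expansins, tubulins and cell division lie far to the left of their control medians, and those for WRKY factors and jasmonate perception lie to the right of 0 in both pairs.

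Genes of cell division, which include cyclins and replication proteins, were at a lower level in S-type roots at all 12 members under salt, and at 8 of the 12 under control. Of the 12, 11 were members through the nodal library alone, so the calls under salt follow largely from membership. The control count runs over the same members, chosen by their salt levels. The sum of the list was 3278.6 scaled reads in control nodal, 2385.2 in control L-type and 1261.8 in control S-type roots. Under salt it was 2023.5, 896.7 and 162.5 in the same order, so the salt S-type library was the lowest of the 6. The nodal to S-type ratio of the sums was 12.5 (10.4 to 15.0) under salt and 2.60 (2.43 to 2.78) under control, and the median log2 difference was -4.22 and -1.34. All 12 members had a more negative difference under salt than under control. One of them was absent under control: it had 358.1 and 6.4 scaled reads in salt nodal and S-type roots against 298.3 and 206.1 in the control pair.

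Expansins, which loosen walls during elongation, were lower at all 10 members. All 10 were members through the nodal library alone, so these lower calls follow largely from membership. In S-type roots their sum was 910.3 scaled reads without salt and 70.9 with it, while nodal roots held 3996.8 and 2324.9 and L-type roots 629.6 and 692.1. The nodal to S-type ratio was 32.8 (25.1 to 43.6) under salt and 4.39 (4.07 to 4.75) under control. All 11 tubulins, the subunits of microtubules, were lower under salt and 10 of these under control. Their sums were 37162.7 in salt nodal, 14567.8 in salt L-type and 5654.2 in salt S-type roots, a nodal to S-type ratio of 6.57 (6.37 to 6.78) against 4.01 (3.92 to 4.09) in the control pair. Tubulin differences under salt ran from -7.54 to -1.58.

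Secondary wall cellulose synthases and their regulators, which mark maturing xylem and fibres, had the lowest ratio of sums of all lists. All 6 members were lower in both pairs. All 6 were members through the nodal library alone, so the lower calls under salt follow largely from membership. The sum was 5071.9 scaled reads in control nodal, 350.1 in control L-type and 238.3 in control S-type roots, and 4078.5, 246.6 and 14.2 under salt. The nodal to S-type ratio was 288 (161 to 576) under salt and 21.3 (18.5 to 24.6) under control. The 3 most abundant members in salt nodal roots, at 1037.5 to 1486.4 scaled reads, had 0.0 to 5.2 in salt S-type roots. Primary wall cellulose synthases, which build the wall of growing cells, were lower at 3 of 6 members and higher at 1, against 5 and 0 under control. Their nodal to S-type ratio was narrower under salt, at 2.46 (2.34 to 2.58) against 3.06 (2.96 to 3.16) under control. The member higher under salt had 442.8 and 1025.1 scaled reads in salt nodal and S-type roots. It had 1099.1 and 812.6 under control, and its difference was absent there.

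Phenylalanine ammonia-lyase opens the phenylpropanoid pathway that feeds lignin and suberin. Most of the reads of its list came from 1 member, with 43565.2 scaled reads in salt nodal and 4302.9 in salt S-type roots against 21446.2 and 15385.4 in the control pair; this lower call was absent under control. A pair of members were higher in S-type roots under both conditions, at 633.1 against 18.3 and 1798.8 against 55.0 scaled reads under salt. The list median, 2.95, and the ratio of its sums, 5.87 (5.72 to 6.04) in favour of nodal roots, therefore differ in direction; with a minimum of 10 scaled reads the median was 0.90. Of 10 later lignin genes 3 were higher and 5 lower; 3 of the lower ones were absent under control. Another was opposite there, with 61.1 and 14.2 scaled reads in salt nodal and S-type roots against 27.5 and 208.5.

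Silicon transporters and Casparian strip genes, some of which are expressed in exodermis and endodermis, split into 2 higher and 2 lower members. The higher ones had 13340.6 and 18120.6 scaled reads in salt S-type against 4132.7 and 1367.7 in salt nodal roots, and were also higher under control. The lower ones had no read and 32.2 scaled reads in salt S-type against 509.2 and 177.3 in salt nodal roots. The last of these was higher under control, at 645.8 in S-type and 156.2 in nodal roots.

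Aquaporins, the water channels of the plasma membrane and tonoplast, were mostly lower. Of the 7 plasma membrane members 4 were lower and 0 higher, and the nodal to S-type ratio of the sums was 3.92 (3.78 to 4.06) under salt and 2.43 (2.37 to 2.49) under control. Of the 5 tonoplast members 4 were lower and 1 higher, and 3 of the lower ones were members through the nodal library alone. The tonoplast sum was 22875.5 and 22186.5 scaled reads in control and salt nodal roots, 4938.9 and 6515.8 in L-type roots and 3150.2 and 590.6 in S-type roots. The ratio was thus 37.6 (34.3 to 41.3) under salt and 7.26 (6.98 to 7.56) under control, with the nodal library nearly level. The most abundant tonoplast member had 12120.3 scaled reads in salt nodal and 46.4 in salt S-type roots against 12067.6 and 2020.7 in the control pair.

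**Figure D4:**
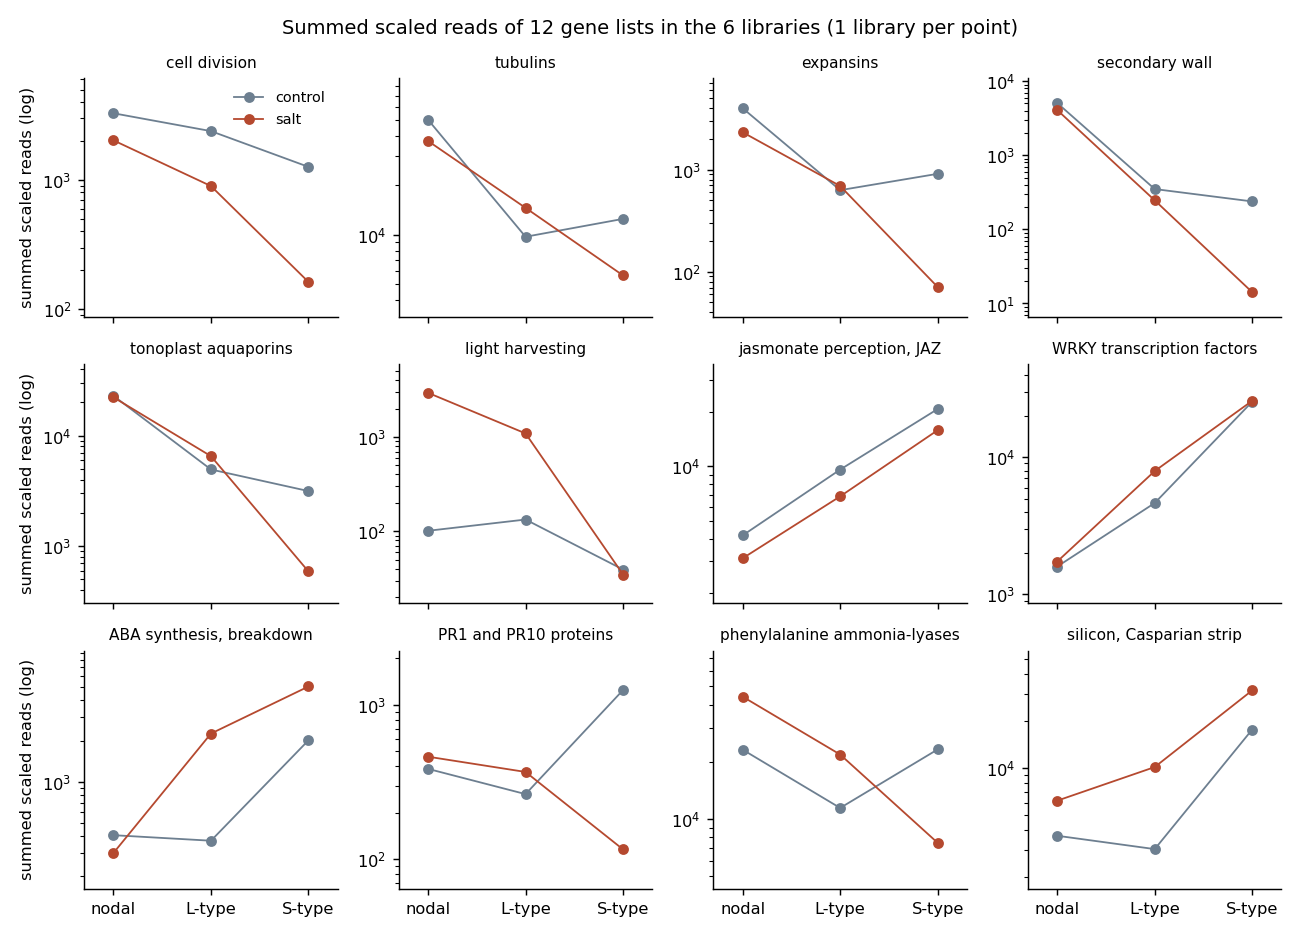
Summed scaled reads (log axis) of 12 gene lists in nodal, L-type and S-type roots under control (grey) and salt (red); each point is 1 library, without replicates. Cell division, tubulins, expansins, the secondary wall and tonoplast aquaporins have their lowest value in salt S-type roots, jasmonate and WRKY lists climb towards S-type roots under both conditions, and light harvesting is raised in salt nodal and L-type roots.

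Genes of auxin transport and response were lower more often than higher. All 4 auxin carriers were lower in both pairs, with a nodal to S-type ratio of the sums of 6.58 (5.69 to 7.64) under salt and 3.48 (3.13 to 3.88) under control. Among these carriers, 3 were members through the nodal library alone. Of 15 Aux/IAA repressors, which hold auxin responses in check, 10 were lower and 3 higher, and 4 of these 13 differences were absent under control. One Aux/IAA member had 639.3 scaled reads in salt nodal and 15.5 in salt S-type roots, against 755.5 and 163.2 in the control pair. Of 4 type-A cytokinin response regulators 2 were lower under salt and 3 under control. Their nodal to S-type ratio was narrower under salt, at 1.75 (1.51 to 2.04) against 4.41 (3.69 to 5.3) under control. Of 4 genes of crown and lateral root patterning 2 were higher and 1 lower.

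Photosynthesis genes, a check for green tissue, were at their highest in the salt nodal and salt L-type libraries. The 36 IDs for light harvesting, photosystems and carbon fixation summed to 5572.0 scaled reads in salt nodal, 2484.6 in salt L-type and 372.6 in salt S-type roots, and to 316.1, 476.2 and 384.9 in the control nodal, L-type and S-type libraries. They made up 0.15% of salt nodal reads. Of the 36 IDs 24 were members, 23 of these through the nodal library alone, so that their lower calls in S-type roots follow largely from membership. For the 12 light-harvesting members the sums were 2937.1 and 34.8 scaled reads, a ratio of 84.4 (57.9 to 128), against 101.2 and 39.3 under control, a ratio of 2.57 (1.73 to 3.92). Of these 12, 2 had no read in salt S-type roots and none had more than 7.7 scaled reads there. Their single control counts were too few to decide, and all 12 fell in the undecided class. The part of these transcripts in the other differences was not tested.

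Jasmonate genes were more often higher than lower in S-type roots, and the ratio of their sums was much the same with and without salt, although single members differed between the pairs. Of 6 synthesis genes 4 were higher and 0 lower, with sums of 2896.1 against 753.7 scaled reads under salt. One synthesis gene had a log2 difference of -0.16 under salt and 3.13 under control, and another 4.77 and 7.80. Of 14 genes for perception and JAZ repressors, the proteins whose breakdown releases the jasmonate response, 9 were higher and 1 lower. Among the 9 higher ones, 5 were members through the S-type library alone. The S-type to nodal ratio of the sums of this list was 5.07 (4.88 to 5.26) under salt and 4.96 (4.80 to 5.12) under control. The member with the largest difference had 2452.5 scaled reads in salt S-type and 2.6 in salt nodal roots, against 2695.1 and 121.6 under control, so its nodal level was the one that moved.

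Of 10 WRKY transcription factors, many of them regulators of defence and stress responses, 8 were higher and 1 was lower under salt, and 9 were higher under control. Among the 8 higher ones, 5 were members through the S-type library alone, and the lower one was a member through the nodal library alone. With a minimum of 10 scaled reads the list median under salt was 2.57 in place of 3.7. The sums were 25773.4 scaled reads in salt S-type, 7926.8 in salt L-type and 1736.2 in salt nodal roots, and 25392.6, 4635.6 and 1596.2 under control. Single members moved apart from the sum. One was at 300.4 in salt S-type and 600.0 in salt nodal roots, which misses the rule, against 563.6 and 72.8 under control. Another had 5037.9 and 9.6 under salt against 3305.1 and 31.1 under control.

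Of 6 listed loci for PR1 and PR10 proteins, markers of pathogen defence, 2 were members, and both were lower. With a minimum of 10 scaled reads, which admits more of the list, its median was 1.37 in place of -2.96. Their summed list stood at 116.0 scaled reads in salt S-type and 462.0 in salt nodal roots but at 1247.5 and 385.3 in the control pair. The S-type to nodal ratio was 0.251 (0.199 to 0.315) under salt and 3.24 (2.89 to 3.63) under control. The main member had 377.3 and 61.9 scaled reads in salt nodal and S-type roots, and 331.1 and 1123.6 in control nodal and S-type roots. None of the 15 listed IDs for labdane diterpenoids, the class that holds rice phytoalexins, was a member.

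Among ABA genes, both members for synthesis and breakdown were higher in S-type roots in both pairs, and their difference was wider under salt. Their sums were 5061.1 scaled reads in salt S-type and 297.8 in salt nodal roots, against 2026.7 and 403.1 under control. The ratio was 17.0 (15.2 to 19.0) under salt and 5.03 (4.53 to 5.59) under control. Of 10 receptors and clade A phosphatases, the first steps of ABA perception, 5 were higher and 2 lower, against 7 and 1 under control. Their ratio of sums was 2.29 (2.15 to 2.45) under salt and 2.53 (2.33 to 2.75) under control. Of 9 SnRK2 kinases, which act below the receptors, 3 were higher and 0 lower, against 5 and 1 under control. The SnRK2 ratio of sums was 4.67 (4.48 to 4.87) under salt and 2.89 (2.77 to 3.02) under control. Their median log2 difference went the other way, at 0.75 under salt and 1.23 under control. One SnRK2 member had 4541.4 scaled reads in salt S-type and 413.1 in salt nodal roots, against 729.2 and 57.7 under control, so both root types held more under salt. Of 12 stress NAC, DREB and bZIP factors 8 were higher and 0 lower, and 11 were higher under control; the ratio of sums was 7.80 (7.44 to 8.18) under salt and 11.1 (10.5 to 11.8) under control. Of 3 dehydrins and late embryogenesis abundant proteins, which protect cells when water is short, 1 was higher, at 5325.4 against 224.5 scaled reads, and 1 was lower, at 309.5 against 972.0.

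Osmolyte genes and SalT-type genes had 6 higher and 2 lower of 10 members. The largest osmolyte difference was 7634.8 scaled reads in salt S-type against 113.5 in salt nodal roots, with 6557.8 and 767.0 under control. A pair of the higher calls were absent under control. Sodium and potassium transporters, which set the ion balance under salinity, had 2 higher and 2 lower of 7 members, and all 4 calls were the same in the control pair. Their sum was 6130.0 in salt S-type and 2558.0 in salt nodal roots, against 5858.5 and 2927.9 under control. Proton pumps, which power ion transport, had 2 higher and 4 lower of 6 members. One pump had 4045.3 and 1497.0 scaled reads in salt nodal and S-type roots against 2895.9 and 5074.5 under control, a lower call absent under control.

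Among nutrient genes, phosphate transport and SPX regulators had 3 higher and 1 lower of 6 members, with sums of 15837.0 scaled reads in salt S-type and 2709.1 in salt nodal roots. Nitrate and ammonium uptake had 2 higher and 3 lower of 5 members. One of these had 69.6 scaled reads in salt S-type and 7.0 in salt nodal roots against 76.3 and 64.8 under control, and its higher call was absent there. Nitrogen assimilation had 1 higher and 3 lower of 6 members, against 0 and 4 under control. Its nodal to S-type ratio of sums was 1.64 (1.55 to 1.72) under salt and 2.39 (2.31 to 2.48) under control. Iron uptake and phytosiderophores had 4 higher and 3 lower of 9 members. Their summed level was lower with salt in every root type: 1648.0 against 5980.1 scaled reads in nodal, 1043.9 against 3485.7 in L-type and 2754.3 against 6235.0 in S-type roots.

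Catalases, superoxide dismutases and ascorbate peroxidases, which remove reactive oxygen, had 0 higher and 3 lower of 9 members. One of them had 4130.1 scaled reads in salt nodal, 203.6 in salt L-type and 1.3 in salt S-type roots, and 2672.2 and 3.6 in the control pair. NADPH oxidases, which make reactive oxygen, had 1 higher and 2 lower of 6 members, and 1 of the lower ones was opposite under control, at 59.5 in nodal and 314.5 in S-type roots against 96.1 and 24.5 under salt. Fermentation enzymes and hemoglobins had 2 of 3 members lower, and sucrose synthases and invertases 2 of 5. Of 6 heat shock proteins 1 was higher and 2 lower. The higher one held most of the reads of the list, with 26171.9 scaled reads in salt S-type, 21336.9 in salt L-type and 12059.2 in salt nodal roots against 8071.0, 6328.6 and 12117.3 under control. Of 9 genes often used as expression references 2 were lower and 0 higher, with a median of -0.51 under salt and -1.13 under control.

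A model over all 6 libraries gave the tests these data allow. An additive limma fit of root type and treatment on log2(scaled reads + 1) called 2199 loci (11.3% of 19469 tested) higher in S-type roots and 1506 (7.74%) higher in nodal roots at a Benjamini-Hochberg adjusted threshold of 0.05, two-sided. Its 2 residual degrees of freedom come from how unevenly differences repeat over treatments, so it measures evenness and not the spread between plants, and it includes the salt pair itself. Of the loci with the same call in both pairs, it called 1925 of the 2445 higher and 946 of the 1557 lower. Of the 428 higher and 672 lower loci absent under control it called 0 and 0. At an unadjusted limma p under 0.05 there were 88 and 85. With the same additive design on whole reads, edgeR's quasi-likelihood test called 0 and 0 of these loci and DESeq2 3 and 18. The classes were chosen by whether the difference repeats over treatments, so the calls per class follow largely from that choice and lend the classes no support. Over all loci edgeR called 1741 higher and 835 lower, and DESeq2 2543 and 2181. The fit rests on the nodal libraries: without the salt nodal library it called 0 and 0, with 3800 loci at an unadjusted p under 0.05, and without the control nodal library 283 and 14.

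The authors' deposited table of pairwise tests marked far fewer loci. Under salt it marked 271 of 19313 tested loci as significant between S-type and nodal roots, 54 higher and 217 lower, and in the control pair 85 of 19007, 40 higher and 45 lower. Of the 271 loci that the authors' deposited table marked under salt, 261 met the rule of size in the same direction, 184 had the same call in the control pair and 5 were absent there. By the authors' deposited table, 22 loci were significant in both pairs.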

How the data were processed

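Messenger RNA of IR29 roots was sequenced from 6 groups of 1 library each, with strand-specific libraries per the labels' protocols. The submitters' processing notes name the build IRGSP-1.0 and, as tools, Cuffdiff 2.2.1, Cufflinks 2.2.1, TopHat2 2.0.11, Bowtie and Trimmomatic 0.32. For each locus and library the authors deposited a signal, that is reads after division by a size factor of that library. The authors also deposited FPKM values with p-values and q-values for pairs of groups. The treatment of reads that match several near-identical copies was not given in the sources used here.

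Dividing each library's signal by the value of 1 read gave whole numbers, within 0.01, for 99.897% to 99.977% of values, and these are the reads used here. The table lists 37938 loci; 828 carry no gene ID and held 0.37% to 0.58% of a library's reads; they stayed in the library sizes and fits as loci. Coordinates are the deposited ones, in which 13467 loci share their interval with another locus. Of 36773 gene IDs only 1 was found in the RefSeq table for assembly ASM3414082v1, which gave no usable names.

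Reads were scaled by TMM (edgeR 4.0.16). The 2-library comparisons used the rule of size with a pseudocount of 1 and no test; a library at 0 reads was set to a floor of 3 reads for folds. Because the deposited unit was a signal and not counts, limma 3.58.1 in R 4.3.3 was chosen for the fit. It was run on log2(scaled reads + 1), from the recovered whole reads, at the 19469 loci that reached 10 reads in 2 or more libraries. On the recovered whole reads, edgeR called 1741 loci higher and 835 lower and DESeq2 1.42.0 called 2543 and 2181. The fit and the rule were tested on simulated data. Alternatives were scaling, minimum level, pseudocount, fold, absence limit, FPKM in place of reads, and leaving out each library from the fit.

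The comparison, the lists and the rules were chosen with earlier results of these data known. The named loci are the 2 higher and 2 lower with the largest log2 difference among those meeting the rule with at least 200 scaled reads and an ID on 1 locus, and, of those absent under control, the 2 per direction whose pairs differ most; list members described without an ID were chosen after their values were seen.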

Additional observations from a re-analysis of the deposited data

Results flagged for a closer look

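At 130 loci the direction changed between the pairs: S-type was lower than nodal under salt and higher under control. Their median log2 difference was -1.80 under salt and 1.98 under control. The median levels were 49.3 scaled reads in control nodal, 217.4 in control S-type, 258.1 in salt nodal, 64.5 in salt S-type and 234.7 in salt L-type roots. The S-type level fell at least 2-fold with salt at 98 of the 130 and the nodal level rose at least 2-fold at 101. The reverse, higher under salt and lower under control, was found at 10 loci, with medians of 1.18 and -1.21. With median-of-ratios factors these counts were 109 and 17. The summed PR1 and PR10 list had an S-type to nodal ratio of 0.251 under salt and 3.24 under control. With 1 library per group, none of these differences between the pairs was tested.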

How the results depend on the processing

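No paired analysis was possible because each group has 1 library and the labels give no replicate numbers; treatment is a term of the additive fit. The counts under salt, 3374 higher and 3103 lower, moved with the minimum level and the fold. With a minimum of 10 scaled reads 5386 loci were lower, with 200 there were 2185 higher and 1131 lower, and at 4-fold 1856 and 1859. With library totals 2355 were higher and 4636 lower. With median-of-ratios factors, the authors' factors, a pseudocount of 5 or FPKM the higher count stayed at 3294 to 3393. The lower count stayed at 2943 to 3090 with these settings. The FPKM counts applied no counting interval. Loci absent under control, 428 higher and 672 lower, became 553 and 559 with median-of-ratios factors, 543 and 562 with the authors' factors, 271 and 956 with library totals, 260 and 313 with a minimum of 200, 65 and 280 at 4-fold, and 196 and 371 when absence meant below 1.5-fold; for 274 higher loci the difference was also at least 2-fold wider under salt. List members lower, 137 in all, became 79 with a minimum of 200. List medians changed sign in a few cases: with library totals iron uptake was -0.22 and crown and lateral root patterning -0.13; with a minimum of 10 the PR1 and PR10 list was 1.37; with a minimum of 200 crown and lateral root patterning was -0.58, the silicon and Casparian strip list 1.69 and sodium and potassium transport 1.04. The cause was not tested beyond the number of loci each setting admits. The additive limma fit called 866 loci lower with the nodal and S-type libraries alone, 2731 with library totals and, as an added choice, 835 with edgeR. Leaving out 1 library at a time gave 0 to 2373 higher and 0 to 3480 lower loci; 3480 were lower without the control S-type library, and 821 and 904 without the control or salt L-type library. The 491 higher and 744 lower undecided loci include some with few control reads and some with many reads and a control difference near 2-fold.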
